A study of Caenorhabditis elegans with 2 samples.

Results

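Of the high ChIP-seq peaks of replicate 1, 412 (57.7%) overlapped no high peak of replicate 2 and lay off the mitochondrial molecule. The high peaks of a replicate are those with the highest signal, taken down to the same rank in both lists, namely as many as the authors' thresholded list of peaks holds. The 412 replicate 1 only peaks were chosen by this signal, the authors' own value for each peak, which ranked each replicate's list on the ce11 build, and by overlap of at least 1 bp. The remaining high peaks of replicate 1 were 300 nuclear peaks that did overlap a high peak of replicate 2, called overlapping peaks here, and 2 mitochondrial peaks. Of the high peaks of replicate 2, 689 were nuclear and the rest mitochondrial, and ranks count both kinds. The full replicate 1 list held 30000 peaks and the replicate 2 list 29397. The samples were late embryos of both sexes, taken as whole animals from the Caenorhabditis elegans strain OP117. This strain carries the unc-119(ed3) allele on chromosome III and the transgene wgIs117, from which PAX-1 is made with an enhanced green fluorescent protein (eGFP) tag. Both biological replicates belong to this 1 group, with no untagged or untreated samples, and the labels do not name the promoter that drives the transgene. The comparison therefore asked where 2 libraries of the same condition placed different sites among their highest peaks.

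PAX-1 belongs to the Pax proteins, transcription factors that bind DNA through a paired domain and act in the development of many animals. In ChIP-seq, DNA that was crosslinked to a protein is pulled down with an antibody and sequenced, and a peak is a stretch with more reads than a control. Peaks at a factor's sites are expected in each replicate, so replicate lists are commonly ranked by signal and compared from the top down. In C. elegans embryos, promoters of highly expressed genes such as those of ribosomal proteins are open chromatin at which many different tagged factors give peaks.

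The sequences below show what these sites look like, from 75 bp before to 75 bp after the summit on the plus strand of ce11, from the RefSeq sequence of that assembly. The first 4 belong to 4 of the 5 highest replicate 1 only peaks with a gene start within 1000 bp, and the next 2 to 2 of the 3 highest replicate 1 only peaks with no overlapping peak anywhere in replicate 2. The rpl-3 peak is the highest overlapping peak near a start, and the last 3 are high peaks of replicate 2 with no high peak in replicate 1. Capitals mark the motif GTCACGC, letters found in the core of paired domain sites, the motif GAGACG, the motif ACGCAG and the motif GAGAGA. Each was searched on both strands, and overlapping matches were joined. The windows lie at chrIV:13086086-13086236 (spin-2), chrIV:17278486-17278636 (hsp-1), chrII:8185109-8185259 (mig-5), chrIII:12905113-12905263 (cox-5A), chrX:877057-877207 (ZC13.1), chrII:10232026-10232176 (T01E8.8), chrIII:3867497-3867647 (rpl-3), chrV:5592456-5592606 (vps-37), chrII:5661041-5661191 (mdt-26) and chrV:11764524-11764674 (F55A11.1).
spin-2: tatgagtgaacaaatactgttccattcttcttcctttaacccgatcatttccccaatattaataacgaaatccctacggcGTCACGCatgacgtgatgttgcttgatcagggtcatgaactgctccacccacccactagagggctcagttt
hsp-1: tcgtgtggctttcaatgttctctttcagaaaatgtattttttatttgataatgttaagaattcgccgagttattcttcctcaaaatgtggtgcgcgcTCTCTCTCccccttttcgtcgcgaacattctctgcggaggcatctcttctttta
mig-5: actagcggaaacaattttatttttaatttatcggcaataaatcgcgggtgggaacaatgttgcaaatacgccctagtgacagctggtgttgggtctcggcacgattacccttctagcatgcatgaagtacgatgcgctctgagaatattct
cox-5A: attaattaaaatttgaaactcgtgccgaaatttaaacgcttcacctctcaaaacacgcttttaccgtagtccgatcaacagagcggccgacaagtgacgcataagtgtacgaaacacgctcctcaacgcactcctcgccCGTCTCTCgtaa
ZC13.1: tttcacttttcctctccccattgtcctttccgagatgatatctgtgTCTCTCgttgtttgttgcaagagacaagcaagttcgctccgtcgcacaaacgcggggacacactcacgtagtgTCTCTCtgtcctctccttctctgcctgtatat
T01E8.8: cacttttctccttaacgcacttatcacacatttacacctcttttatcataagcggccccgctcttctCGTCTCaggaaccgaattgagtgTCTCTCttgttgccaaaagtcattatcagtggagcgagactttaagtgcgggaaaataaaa
rpl-3: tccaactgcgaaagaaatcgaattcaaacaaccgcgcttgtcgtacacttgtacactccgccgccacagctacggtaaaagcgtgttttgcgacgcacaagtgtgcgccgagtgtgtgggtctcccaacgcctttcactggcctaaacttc
vps-37: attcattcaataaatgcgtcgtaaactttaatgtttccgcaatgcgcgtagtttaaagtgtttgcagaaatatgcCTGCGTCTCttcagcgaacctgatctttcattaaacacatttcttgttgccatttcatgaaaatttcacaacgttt
mdt-26: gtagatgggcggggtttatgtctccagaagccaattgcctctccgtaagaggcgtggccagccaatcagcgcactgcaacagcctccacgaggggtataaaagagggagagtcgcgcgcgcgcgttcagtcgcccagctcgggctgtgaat
F55A11.1: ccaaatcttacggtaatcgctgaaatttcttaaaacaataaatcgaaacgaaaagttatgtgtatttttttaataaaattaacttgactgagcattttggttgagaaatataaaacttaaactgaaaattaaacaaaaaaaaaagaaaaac

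Guanine and cytosine made up 45%, 41.1%, 43.7%, 46.4%, 49.0% and 43.0% of the 6 replicate 1 only windows in the order printed. The window of rpl-3 had 53.0%, and the windows of the replicate 2 only peaks at vps-37, mdt-26 and F55A11.1 had 35.8%, 60.3% and 23.2%. The mig-5, rpl-3, mdt-26 and F55A11.1 windows held none of the 4 marked motifs.

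By signal, most of the replicate 1 only peaks stood in the lower part of the high list. Their median signal was 46.4 (39.2 to 119.8), beside 57.1 for the overlapping peaks (39.2 to 428). When the high peaks of replicate 1 were split by rank into 6 equal parts, the highest part held 22 replicate 1 only peaks (18.8% of its nuclear peaks) and the next held 61 (51.3%). The share was between 58.0% and 76.5% in each of the 4 lower parts. The 4 highest nuclear peaks of replicate 1, nearest to C30E1.4, F11D5.7, W02H3.3 and chtb-1, had signals of 428 and 267 for the first 2 and 147 for the last, and all overlapped a high replicate 2 peak, at ranks 11, 17, 277 and 28 of its list. The fifth, 282 bp upstream of rpl-3, a gene of the large ribosomal subunit, had a signal of 141 in replicate 1 and of 43.6 in replicate 2. These values follow from the choice by rank and carry no test.

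The name of the set refers to the high ranks only. The full lists hold background as well as peaks, so a counterpart far down the replicate 2 list may be background. Of the 412 peaks, 344 (83.5%) overlapped a peak somewhere in the full replicate 2 list, and 68 (16.5%) overlapped none. Of all 29998 nuclear replicate 1 peaks, 11348 (37.8%) overlapped a replicate 2 peak, and of those in the next stretch of equal length below the high peaks, from rank 715 on, 537 did (75.2%). Since rank in replicate 2 was part of the choice, nothing is read from these shares.

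In the replicate 2 list the counterparts of the 344 peaks ranged from rank 718 to rank 28983. Their quartiles were ranks 1289.5, 2974 and 7927, against a median rank of 212 for the counterparts of the overlapping peaks. Ahead of rank 1429 stood the counterparts of 100 peaks (24.3% of the 412), within rank 5000 those of 224 (54.4%), and beyond rank 10000 those of 64 (15.5%). Their replicate 2 signal had a median of 19.4 and ran from 9.58 to 26.5, and that of the overlapping peaks had a median of 37.2 and ran from 26.6 to 219. So the counterparts reached over the whole list, with those of 100 of the 344 peaks in the stretch next to the high peaks. A counterpart shared by 2 replicate 1 peaks is counted for each, as at rank 754 for 2 peaks at sup-26. The summits of the 2 replicates lay a median of 69.5 bp apart at the replicate 1 only peaks with a counterpart and 33.5 bp apart at the overlapping peaks.

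**Figure D1:**
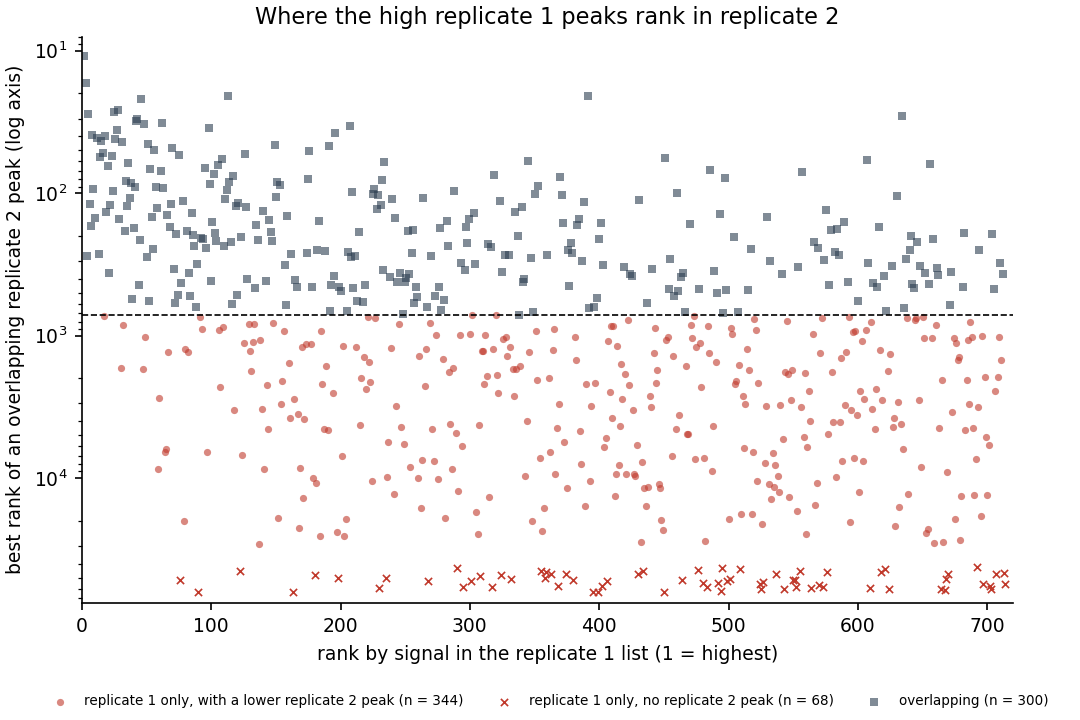
Rank of each high nuclear replicate 1 peak in its own list (horizontal axis, 1 is the highest) against the best rank of a replicate 2 peak that it overlaps (vertical axis, log scale, high ranks at the top), with the dashed line at the last high rank of replicate 2. Red circles are the 344 replicate 1 only peaks with a lower replicate 2 peak, dark squares the 300 overlapping peaks, and crosses, at an arbitrary height, the 68 peaks with no replicate 2 peak. The circles fill the range from rank 718 to 28983, and few of them lie at the left edge.

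The threshold itself divided peaks of nearly equal signal. The replicate 1 only peaks whose counterparts ranked nearest below the high peaks of replicate 2 were those at rpl-41.2 (rank 718), rbr-2 (722), pas-4 (724), F33H2.3 (728) and rsp-8 (744), with replicate 2 signals between 26.2 and 26.5. The overlapping peaks nearest above were those at wve-1 (rank 693), T07A9.12 (702) and K08F9.4, the last of the high peaks, with 26.7, 26.6 and 26.6. Mitochondrial peaks hold ranks too, and 689 of the high replicate 2 peaks were nuclear. Counted among nuclear peaks alone, the counterparts at rpl-41.2, rbr-2, pas-4 and F33H2.3 would fall within the threshold rank. On the replicate 1 side, the last 2 high peaks, nearest to ceh-58 and pqn-41, both belonged to the set, and ranks 715 and 716, nearest to brd-1 and bam-2, fell outside it. All 4 had a signal of 39.2.

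The 2 lists also differed in how far their high peaks rose above the rest. The median signal of the high peaks was 4.30 times the median of the list in replicate 1 and 2.56 times in replicate 2. The highest −log10 q of a list was shared by 711 peaks in replicate 1, at 3.15, and by 244 in replicate 2, at 1.65. Read counts are not part of any list, which leaves the depth behind the peaks unknown, and the part of depth or of pull-down efficiency in the set was not tested.

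The authors also called peaks on both replicates pooled and thresholded that list. Of the 412 replicate 1 only peaks, 248 (60.2%) overlapped a thresholded peak, against 293 of the 300 overlapping peaks (97.7%) and 106 of the 385 replicate 2 only peaks (27.5%), which are the nuclear high peaks of replicate 2 that overlap no high peak of replicate 1. Among all nuclear replicate 1 peaks the share was 2.62%. The share depended on how many peaks were taken from each replicate: with fewer it was 91.6% of 202 replicate 1 only peaks, and with more 20.8% of 840. The pooled signal draws on both replicates, so these shares are a description. In the pooled list 411 of the 412 had a peak, with a median rank of 613 and a range from 54 to 6428, and the exception was the peak 365 bp upstream of spas-1. The median pooled rank was 182 for the overlapping peaks and 1107 for the replicate 2 only peaks. The lowest pooled rank, 6428, was at nfm-1, which had a replicate 1 signal of 39.3 and no replicate 2 peak.

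Overlap with the thresholded list was more frequent at better ranks in replicate 2. Of the 100 peaks with a replicate 2 rank from 715 up to but not including 1429, 89 (89%) overlapped a thresholded peak. The share was 71.8% of the 124 from rank 1429 to 5000, 51.7% of the 120 from rank 5001 to the end of the list at 29397, and 11.8% (8 peaks) of the 68 with no counterpart. Replicate 1 signal hardly differed over these 4 classes, with medians of 47.7, 46.4, 46.4 and 44.9. The thresholded list was derived from pooled signal, to which replicate 2 contributes. A rise with replicate 2 rank was therefore built in, and nothing is read from it.

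Genes were assigned where the nearest protein-coding start lay within 1000 bp of the summit. This gave 276 of the 412 peaks (67.0%) a gene, 274 genes in all, which is 2.97% of the 9235 genes given any replicate 1 peak. The overlapping peaks gave 200 genes from 201 peaks. Only cbp-1, which encodes a CBP/p300 class acetyltransferase, had both a replicate 1 only peak and an overlapping peak, and ikke-1 and mdt-26 had both a replicate 1 only and a replicate 2 only peak. Of the 276 peaks, 101 had the start of another protein-coding gene within 1000 bp, so their gene rests on the nearest start.

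The highest replicate 1 only peaks lay upstream of genes of varied function. The highest, on chromosome I 417 bp upstream of F33H2.3, had a signal of 119.8 (rank 17) in replicate 1 and of 26.4 (rank 728) in replicate 2, and ranked 54 in the pooled list. The peak 844 bp upstream of spin-2, a gene of the Spinster family of transporters (chrIV:13085993-13086328), had a signal of 109 (rank 30) in replicate 1 and 21.9 (rank 1695) in replicate 2. The hsp-1 peak, 398 bp upstream of this gene for a constitutive heat shock protein of the Hsp70 class (chrIV:17278530-17278636), had 107 (rank 32) in replicate 1 and 25.6 (rank 839) in replicate 2. All 3 were in the thresholded list, and in replicate 2 the F33H2.3 and hsp-1 peaks stood closer under the high peaks than that of spin-2.

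The peak 161 bp upstream of mig-5, a Dishevelled gene of Wnt signalling (chrII:8185016-8185351), had a signal of 97.9 (rank 47) in replicate 1 and 21.8 (rank 1732) in replicate 2, and the start of the chaperonin gene cct-1 was also within 1000 bp. The peak 303 bp upstream of cox-5A, which encodes a subunit of cytochrome c oxidase (chrIII:12905020-12905355), had 90.5 (rank 60) and 19.8 (rank 2746). The peak 857 bp upstream of chd-7, a chromodomain helicase gene, had 88.3 (rank 64) and 16.0 (rank 6621). These 3 stand in replicate 2 well below the high peaks, and their pooled ranks of 110, 117 and 122 nevertheless put them in the thresholded list.

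The largest gap in rank between the replicates among the 20 highest assigned peaks with a counterpart was at cdl-1, which encodes the protein that binds the stem-loop of histone mRNA. Its peak, 213 bp upstream, had a signal of 82.3 (rank 79) in replicate 1 and 11.3 (rank 19899) in replicate 2, and a pooled rank of 213. The other assigned peaks among the 20 with a counterpart were those of rpl-11.2 and rpl-13 of the large ribosomal subunit (ranks 67 and 118 in replicate 1, 1297 and 3357 in replicate 2), C35E7.12 (80 and 1237), ajm-1, an apical junction gene (82 and 1311), atg-16.1, an autophagy gene (93 and 898), serp-1.1 (97 and 6623), ins-39, an insulin-related peptide gene (124 and 6883), ubl-1, a fusion of a ubiquitin-like and a ribosomal protein (125 and 1120), eif-3.B, a subunit of translation initiation factor 3 (129 and 835), and eelo-2 (131 and 1763). The ajm-1 summit lay in an intron of the gene, upstream of its nearest start. Another peak nearest to ajm-1 was an overlapping peak (219 and 439).

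The 68 peaks with no replicate 2 counterpart had a median signal of 44.9 and held 3 of the 20 highest assigned peaks. The highest was 107 bp upstream of ZC13.1 (chrX:876964-877299) with a signal of 83.3 (rank 76) and a pooled rank of 329. It was followed by that of use-1 on chromosome I (79.5, rank 90, 7 bp from the start, with the start of the proteasome gene pas-3 also near) and that in an intron of T01E8.8 (chrII:10231933-10232268, 72.8, rank 122). The fourth and the fifth were at Y48G1C.8 (65.2, rank 163) and 1538 bp upstream of ttbk-7, a gene of the tau tubulin kinase family (62.7, rank 180). All 5 overlapped a thresholded peak, and they were among the 8 of 68 that did.

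Another 136 replicate 1 only peaks had no start within 1000 bp. Of these, 89 lay outside protein-coding genes, 42 in introns and 5 in exons, the median distance to a start was 2218 bp, and 21 were over 5000 bp away. The names that follow were chosen after their values were seen and give the nearest start for orientation. A pair of peaks near ttx-1, an Otx class homeobox gene needed for the identity of the AFD thermosensory neurons, was the highest of this kind. One lay in the gene, 1360 bp from the nearest start (95.5, rank 49 in replicate 1 and rank 1023 in replicate 2), and the other 4416 bp upstream (91.9, rank 59 and rank 8667). Others stood near kal-1, a homologue of anosmin (88.2), hif-1, the hypoxia-inducible factor gene (1868 bp upstream, 75.3, rank 109 and rank 878), pha-4, the FoxA gene of the pharynx (3806 bp upstream, chrV:20749078-20749413, 71.1, rank 132 and rank 1110), and daf-16, the FOXO gene of insulin signalling (69.5, rank 141 and rank 8621). The pha-4 peak is counted in none of the gene lists, since it lies beyond the distance used for them.

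Position relative to genes was compared next, since distance and annotation took no part in the choice. Summits within 500 bp of a protein-coding start made up 221 of the 412 replicate 1 only peaks (53.6%) and 179 of the 300 overlapping peaks (59.7%), which gave an odds ratio of 0.783 (95% interval 0.580 to 1.06) and an adjusted p of 0.504 over 8 features (two-sided Fisher's exact test). Over all nuclear replicate 1 peaks it was 28.1%, and in the next stretch below the high peaks it was 53.1%. Of the near summits, 199 of 221 (90%) were upstream of the start among replicate 1 only peaks and 164 of 179 (91.6%) among overlapping peaks. The median distance was 385 bp and 314 bp.

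Starts of protein-coding genes on both strands within 1000 bp, the arrangement of divergent promoters and of neighbouring genes, showed the smallest p of the 8 features. They were found at 84 of 412 replicate 1 only peaks (20.4%) and at 85 of 300 overlapping peaks (28.3%), so that the odds ratio was 0.648 (95% interval 0.459 to 0.917) with an adjusted p of 0.128 (Fisher's exact test). This did not pass the threshold of 0.05 among the high peaks, and it passed when double as many peaks of each replicate were taken (odds ratio 0.672, exact test, adjusted p = 0.0176). Of all nuclear replicate 1 peaks, 5.28% had starts on both strands.

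No other feature passed either. Summits outside protein-coding genes were 75% of replicate 1 only and 77.3% of overlapping peaks (odds ratio 0.881, 95% interval 0.621 to 1.25). Introns held 18.4% and 17.7% (1.05, 0.715 to 1.55), and exons 6.55% and 5.0% (1.31, 0.692 to 2.49). Genes of tRNA, snRNA or snoRNA were overlapped by 4.13% and 3.33% (1.22, 0.561 to 2.67) and other non-coding RNA genes by 18% and 19.7% (0.893, 0.612 to 1.30). A G+C content over 40% was found at 78.2% and 82.0% (0.788, 0.542 to 1.15, with an adjusted p of 0.587 by Fisher's exact test). Of all nuclear replicate 1 peaks, 45.0% lay outside protein-coding genes and 21.3% had a G+C over 40%. Genes of tRNA, snRNA or snoRNA were overlapped by 1.21% of them, and other non-coding RNA genes by 5.63%. With the larger number of peaks, exons (odds ratio 1.74) and sequence outside protein-coding genes (0.729) passed, both with an exact-test adjusted p of 0.0363. Peaks of a list are not replicate animals, and close neighbours depend on each other, so the tests speak of these lists of peaks only.

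**Figure D2:**
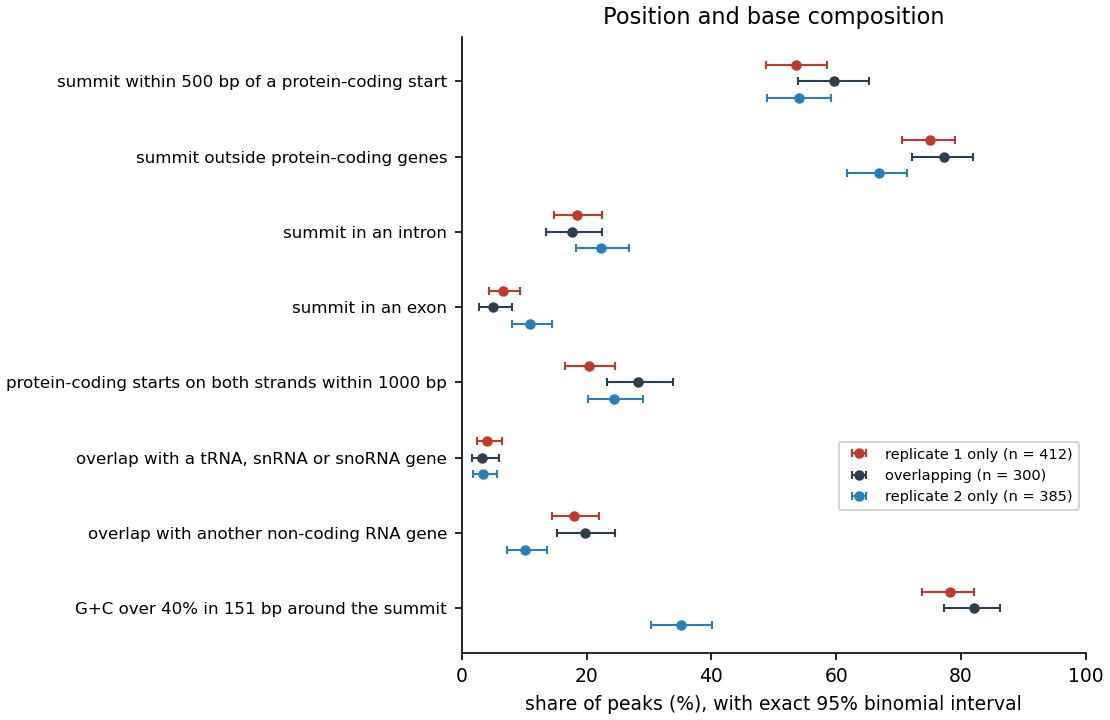
Share of peaks (%, with exact 95% binomial intervals that cover the number of peaks only) that show each of 8 features, for the 412 replicate 1 only peaks (red, top of each trio), the 300 overlapping peaks (dark) and the 385 replicate 2 only peaks (blue). The red and dark intervals overlap at each of the 8 features, and at a G+C over 40% the blue point, at 35.1%, lies far below both.

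The chromosomes showed no difference that passed either. On the 5 autosomes in order and then on X, replicate 1 only peaks numbered 88, 54, 77, 61, 71 and 61, and overlapping peaks 57, 50, 56, 50, 38 and 49. The largest odds ratio was on chromosome V, with 17.2% and 12.7% (1.43, 95% interval 0.935 to 2.18), where the adjusted p over the 6 chromosomes was 0.594 by Fisher's exact test. Repeated sequence was rare in the set: 16 of the 412 windows (3.88%) held any stretch of 31 bases that recurs in the genome, and so did 8 of 300 (2.67%). In 1 replicate 1 only window, at C28G1.2 over a tRNA gene, such stretches made up at least 50% (50.4%).

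Base composition differed between the replicate 1 only peaks and their mirror image, the 385 replicate 2 only peaks, in a comparison chosen after values of G+C were seen. In the 75 bp on each side of the summit the replicate 1 only peaks had a mean G+C of 44.6% ± 6.57 (SD over 412 peaks), the overlapping peaks 44.7% ± 6.18 (300 peaks) and the replicate 2 only peaks 36.9% ± 8.50 (385 peaks). The medians were 44.4%, 45% and 35.8%, beside 33.1% over all nuclear replicate 1 peaks, 31.8% over all nuclear replicate 2 peaks and 35.4% over the genome. A content over 40% was found at 322 of 412 replicate 1 only peaks (78.2%) and at 135 of 385 replicate 2 only peaks (35.1%), which gave an odds ratio of 6.59 (95% interval 4.82 to 9.01) and an adjusted p of 9.61e-35 over 8 features (two-sided Fisher's exact test). The test compares the peak lists of 2 libraries of the same condition, and what part library preparation or sequencing had in it was not tested.

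**Figure D3:**
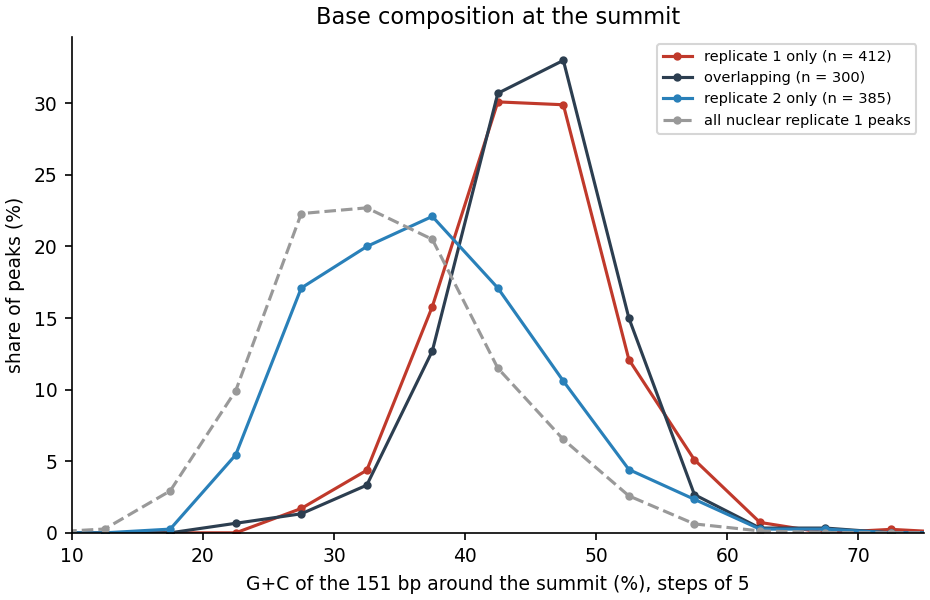
Distribution of the G+C content within 75 bp of the summit (%, in steps of 5) as a share of each set of peaks (%), for the 412 replicate 1 only, the 300 overlapping and the 385 replicate 2 only peaks and, dashed, all nuclear replicate 1 peaks. The red and dark curves run together with medians of 44.4% and 45%, and the blue curve, with a median of 35.8%, lies nearer the dashed one, with 33.1%.

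Within the set, the G+C content was given by rank in replicate 2. The share over 40% was 80% for peaks with a replicate 2 rank from 715 up to but not including 1429, 75.8% from there to rank 5000, 79.2% for lower ranks and 77.9% for the 68 with no counterpart. Summits within 500 bp of a start were 48.0%, 55.6%, 55.8% and 54.4% of the same 4 classes. The shares over 40% thus lay between 75.8% and 80% in all 4 classes, and no test was run on them.

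Between the replicate 1 only and the replicate 2 only peaks, the odds ratios of the other features lay nearer to 1. The p-values of these comparisons too cover the number of peaks only. Summits outside protein-coding genes were 75% of replicate 1 only and 66.8% of replicate 2 only peaks (odds ratio 1.49, 95% interval 1.10 to 2.03, with an adjusted p of 0.0329 by Fisher's exact test). Non-coding RNA genes other than those of tRNA, snRNA and snoRNA were overlapped by 18% and 10.1% (1.93, 95% interval 1.28 to 2.92, exact test, adjusted p = 0.00641). Summits within 500 bp of a start, 53.6% and 54%, gave an odds ratio of 0.985 (95% interval 0.745 to 1.30). Exons held 6.55% and 10.9%, which did not pass (0.577, 95% interval 0.349 to 0.952, with an adjusted p of 0.0643 by the same exact test). The replicate 2 only peaks also had a lower share over 40% G+C than the replicate 2 peaks that overlap a high replicate 1 peak, 35.1% and 69.7% (odds ratio 0.235, 95% interval 0.171 to 0.325, with an adjusted p of 9.34e-19 by the same exact test). The same contrast in replicate 1 was the 78.2% and 82.0% given above. The 69.7% and the 82.0% describe the same shared sites, with each window centred on the summit of its own replicate.

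Short motifs in these windows were counted on both strands and are given as shares, with no test. GTCACGC was found in 2.43% of replicate 1 only windows, 2.00% of overlapping windows, 0.779% of replicate 2 only windows and 0.420% of all nuclear replicate 1 windows. In replicate 1 windows with a G+C over 40% the share was 1.19%. GTCACGC stood in 10 of the 412 replicate 1 only windows, and the spin-2 window printed above is among them. The shorter TCACGC, which lies within GTCACGC, was in 5.58%, 6.0%, 3.64% and 2.20% of the 4 sets in the same order, and in 4.86% of the replicate 1 windows with a G+C over 40%. A match is a description of the letters and not of a bound site.

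GAGAGA was found in 39.8% of replicate 1 only, 34.7% of overlapping and 20.5% of replicate 2 only windows. It was in 11.5% of all replicate 1 windows and in 26.6% of those over 40% G+C. GAGACG was in 27.2%, 29.7% and 12.5% of the 3 sets, against 16.6% of all replicate 1 windows over 40% G+C, and ACGCAG in 24.0%, 27.7% and 10.9%, against 13.3%. These last 2 motifs overlap by the letters ACG where the second directly extends the first. GCGCGC was in 11.4%, 12.3% and 7.53%, against 6.06%, and TTTCGCGC in 2.67%, 3.33% and 0.519%, against 1.70%.

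The A and T rich motifs had higher shares in the replicate 2 only windows. TTTTTT was in 31.3% of replicate 1 only, 27% of overlapping and 52.2% of replicate 2 only windows, against 30.1% of all replicate 1 windows over 40% G+C and 61.4% of all of them. TATAAA was in 9.71%, 7.67% and 16.9% of the 3 sets, against 7.50% and 19.1% of the same backgrounds. TGATAA, which holds the core of GATA factor sites, was in 6.55%, 3.67% and 10.4%, against 6.90% and 13.4%. CACGTG, the E-box, was in 2.18%, 2.67% and 1.56%, below the 3.56% of replicate 1 windows over 40% G+C and beside 2.03% of all of them. TGACTCA was in 2.43%, 2.00% and 1.30%, against 1.75% and 1.44%.

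Gene groups were described by counts, since the peaks were chosen with results known. Apart from the tissue markers, which were written down gene by gene, the groups were drawn up from gene symbols. Family members under other symbols are not counted, and a shared symbol need not mean a shared function. Of the 49 cytosolic ribosomal protein genes given any replicate 1 peak, 13 (26.5%) had a replicate 1 only peak, 16 (32.7%) an overlapping peak and 4 a replicate 2 only peak, beside 2.97% and 2.17% of all 9235 genes for the first 2 kinds. The 13 were rpl-11.2, rpl-13, rps-15, rps-24, rpl-41.2, rpl-25.2, rpl-32, rpl-9, rpl-38, rpl-7A, rpl-7, rpl-23 and rps-21, with replicate 1 signals between 39.4 and 88.0. The summits of all 13 were upstream of the start, at 41 to 352 bp. The 16 overlapping peaks of the same family, led by rpl-3 (141), rps-12 and rpl-15 (105), had signals from 41.3 up and replicate 2 ranks from 70 to 612.

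In replicate 2 the 13 peaks were far apart. The peak of rpl-41.2 ranked 718 and that of rpl-11.2 ranked 1297, while those of rps-24, rps-15 and rpl-7A ranked 10128, 19027 and 19287. Those of rpl-25.2 and rps-21 had no counterpart. Of the 13, 9 were in the thresholded list, and those of rpl-25.2, rpl-7A, rpl-23 and rps-21 were not. The summits of rps-15, rpl-41.2, rpl-25.2, rpl-9, rpl-7A, rpl-7 and rpl-23 also had another start within 1000 bp.

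Mitochondrial respiration and translation genes had 9 replicate 1 only peaks among 63 genes (14.3%), 3 overlapping peaks (4.76%) and 3 replicate 2 only peaks. They were the cytochrome c oxidase genes cox-5A and cox-5B (90.5 and 50.1) and the assembly gene cox-10 (45.1), the mitochondrial ribosomal genes mrpl-55, mrpl-49, mrps-16 and mrpl-15 (47.0, 42.1, 41.7 and 40.7), the ATP synthase gene atp-3 (41.8) and the succinate dehydrogenase gene sdha-1 (41.3). Their replicate 2 ranks ran from 753 for mrpl-15 to 7577 for mrps-16, and that of sdha-1 had no counterpart. Of the 9, 4 were in the thresholded list, and those of cox-5B, mrpl-49, atp-3, mrps-16 and sdha-1 were not. The summits of cox-10, mrpl-49 and atp-3 also had another start within 1000 bp, which at mrpl-49 was that of the cytosolic ribosomal gene rpl-28. The 3 overlapping peaks were those of the mitochondrial ribosomal genes mrps-7, mrpl-28 and mrpl-17. Respiratory genes under other symbols are not in this list. Among them, nduf-11 and asb-2 were nearest to replicate 1 only peaks, ndub-8 to an overlapping and ndua-2 to a replicate 2 only peak.

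Of the 45 chaperone genes, 5 (11.1%) had a replicate 1 only peak and 3 (6.67%) an overlapping peak. The 5 were hsp-1 (107), the DnaJ gene dnj-9 (46.6), the small heat shock gene hsp-16.41, whose summit also lay near the start of hsp-16.2 (45.1), the Hsp70 class gene hsp-3 (41.8) and the co-chaperone gene sti-1 (40.5). They ranked 839, 3318, 1333, 2470 and 2852 in replicate 2, and all 5 were in the thresholded list. The overlapping peaks were those of hsp-90, dnj-24 and dnj-13. The Hsp70 family gene F44E5.5 is outside this list by its symbol, though an overlapping peak lay near its start and that of F44E5.4.

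The 19 proteasome genes had 3 replicate 1 only peaks (15.8%) and 2 overlapping peaks (10.5%). The 3 were at rpt-2, an ATPase of the cap (70.1, ranks 137 and 28983), rpn-5 of the regulatory particle (47.4, ranks 405 and 5267) and pas-4 of the core (45.3, ranks 473 and 724). Each of these summits had another start within 1000 bp, aps-1, scc-1 or rpb-3, in this order. The rpt-2 counterpart had the lowest replicate 2 rank of the whole set.

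Translation factor and tRNA synthetase genes had 3 of 43 with a replicate 1 only peak (6.98%: eif-3.B, eif-3.J and eef-1A.2) and 4 with an overlapping peak. RNA polymerase II and splicing genes had 3 of 25 (12%: rsp-8, rsp-2 and snr-4) and 1. Nuclear hormone receptor genes had 4 of 145 (2.76%), close to the 2.97% of all genes, at nhr-44 (68.7), nhr-62 (56.4), nhr-58 (55.6) and nhr-34 (45.5), and their replicate 2 ranks lay between 4540 and 7515. Rab and secretory genes had 2 of 26 (sec-16A.1 and sec-24.1) and 2, the vacuolar ATPase genes 1 of 14 (vha-9) and 1, and replication and cell cycle genes 1 of 31 (mcm-7, a subunit of the replicative helicase) and 4. Genes with a replicate 2 only peak numbered 5, 1, 3, 0, 0 and 5 in the order of these lists. Chaperone and proteasome genes had 2 each. In all, 249 genes had such a peak, and these counts were not set against the genes given any replicate 1 peak.

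Some lists had overlapping peaks and no replicate 1 only peak. Histone genes had 0 of 16 with a replicate 1 only peak and 4 (25%) with an overlapping peak, at his-68, his-61, his-32 and his-37, with replicate 2 ranks from 67 to 206. Tubulin and actin genes had 0 of 11 and 2 (tba-2 and act-4), and homeobox genes 0 of 41 and 1 (ceh-38). Collagen genes had 0 of 36 in both. A replicate 2 only peak was given to 1 histone gene and to 1 tubulin or actin gene, and to no homeobox or collagen gene. With so few genes per list, these counts are not read as a difference.

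**Figure D4:**
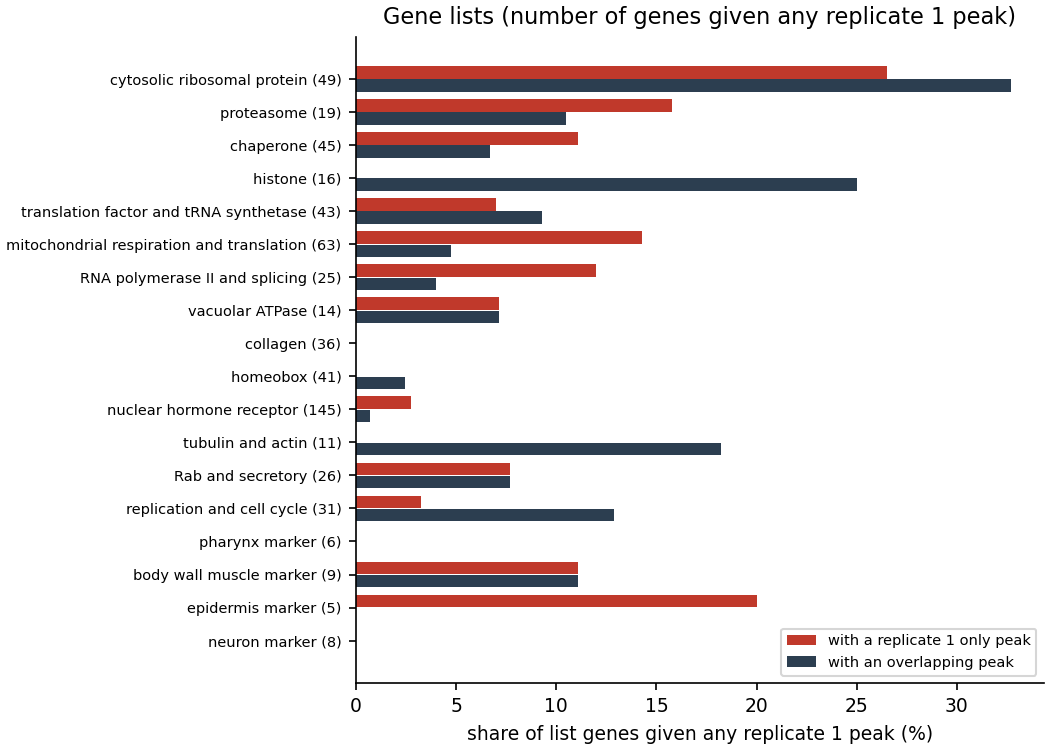
Share (%) of the genes of each list that had a replicate 1 only peak (red, upper bar) or an overlapping peak (dark, lower bar) whose summit lay within 1000 bp of their start and had that start as its nearest, out of the genes given any replicate 1 peak, whose number stands in brackets. Ribosomal protein genes are high in both (26.5% and 32.7%), mitochondrial genes are 14.3% and 4.76%, and the histone list has a dark bar only. The lists were drawn up by symbol, so family members under other symbols are left out.

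Of the tissue markers given any replicate 1 peak, 2 of 31 (6.45%) had a replicate 1 only peak, beside 2.97% of all genes. Among the markers given any replicate 1 peak, the counts were 0 of 6 for pharynx, 0 of 8 for neurons, 0 of 2 for intestine and 0 of 1 for germline. Body wall muscle markers had 1 of 9, at unc-112, a muscle attachment gene (49.2, ranks 362 and 6597), and epidermis markers 1 of 5, at ajm-1. The overlapping peaks gave 1 muscle marker, act-4, and 0 of the others. Replicate 2 only peaks gave 1 muscle and 1 neuron marker. Overlapping peaks nearest to pha-4 and ajm-1 lay beyond 1000 bp of a start and are not counted here. The same holds for replicate 1 only peaks nearest to the pharynx marker pha-4 (ranks 132 and 556) and the muscle marker unc-97 (rank 413). Since the animals were whole embryos, peaks in few cells and weak peaks in many cannot be told apart.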

How the data were processed

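The deposited data were 8 peak lists, 4 per build (ce10 and ce11). Per the deposited listing, the replicate and the pooled lists hold peaks with background, made with a control alignment as input for a reproducibility ranking, and the thresholded list of 714 peaks was derived from them. For aligner, peak caller and thresholds, names were not given in the sources used here. Each peak's signal is the authors' value on an unstated scale, and the −log10 q is deposited by the authors too. Both served to rank and describe peaks inside a list. Signals of the 2 lists printed side by side are not known to share a scale, and no drop is read from them. At the last high rank the signal was 39.2 in replicate 1 and 26.6 in replicate 2. Without read counts the depth is unknown, and intervals cover the number of peaks only.

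Work was done on ce11 with the Ensembl 115 annotation and RefSeq sequence of that assembly. The 714 highest peaks of each replicate, mitochondrial ones included, were the high peaks. Overlap meant at least 1 bp shared, and among several overlapping replicate 2 peaks the best ranked was used. A summit was near a start within 500 bp, and a gene was assigned within 1000 bp. Shares were compared by the two-sided Fisher's exact test, with Woolf intervals of the odds ratio (0.5 added to each cell) and Benjamini-Hochberg adjustment over 8 features or 6 chromosomes. Windows for G+C and the 12 motifs were 151 bp long.

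The members, the 20 gene lists and the motifs were chosen with earlier results of these data known. Of the 10 intestine markers written down, 9 matched an annotated symbol. Named were the genes of the 20 highest replicate 1 only peaks with a start within 1000 bp, the 5 highest overlapping peaks, the 5 highest without a counterpart, the 5 highest in the pooled list, the peaks at the thresholds and up to 6 genes per list. Further names, the other ribosomal and mitochondrial genes among them, were chosen after their values were seen, as were the comparison with replicate 2 only peaks and its alternatives. Alternatives were the 357 and the 1428 highest peaks (the smaller and the larger number), overlap of at least 50% of both peaks, a gap of up to 500 bp counted as overlap, the ce10 lists, starts within 250 or 1000 bp, the peaks without counterpart alone, and ranks 1 to 357 (upper ranks) and 358 to 714 (lower ranks) alone. The steps were tested on simulated data. Tools were Python 3.11.15 with scipy 1.17.1, numpy 2.4.6, pandas 2.3.3, matplotlib 3.10.9 and statsmodels 0.14.6.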

Additional observations from a re-analysis of the deposited data

How the results depend on the processing

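The number of replicate 1 only peaks, 412, was 202 with the smaller number of peaks taken from each replicate and 840 with the larger number, and the number with no replicate 2 counterpart, 68, was 17 and 245. These counts follow from how many peaks are taken. The number of position features that passed, 0, was 3 with the larger number. The odds ratio for summits near a start was 1.00 (exact p = 1.00) when starts within 1000 bp were counted, and between 0.680 and 1.00 over its 9 alternatives. Among the lower ranks, the odds ratios turned to 1.20 for a G+C over 40%, 1.19 for sequence outside genes, 0.588 for exons, 0.876 for chromosome I and 1.31 for chromosome III. With the larger number those of chromosomes I, II and X turned to 0.879, 1.02 and 1.37. With overlap of at least 50% they turned to 0.944 for introns, 0.977 for small RNA genes and 1.04 for chromosome III. Small RNA genes had 0.443 with the smaller number and 0.794 among the upper ranks. None of these turned odds ratios passed its test in either form, and the cause was not tested. No chromosome passed under the 6 alternatives run for chromosomes, and the share that overlapped a thresholded peak, 60.2%, was 91.6% (185 of 202) with the smaller number, 20.8% (175 of 840) with the larger and between 53.7% and 62.4% under the other 3. The odds ratio of G+C over 40% against replicate 2 only peaks lay between 4.78 and 9.73 over 8 alternatives. Leaving out a replicate gives no value, since the choice of peaks needs both. No paired analysis was possible because both replicates belong to 1 group. The unknown depth of each library limits what absence from replicate 2 can mean.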

Other observations

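Some replicate 1 only peaks had a high replicate 2 peak close by without overlap, and the names in these paragraphs were chosen after their values were seen. In 10 of the 412 (2.43%), the summit had that of a high replicate 2 peak within 1000 bp, at nhr-61, lgg-2, gldi-3, hrg-5, F44E5.5, cbp-1, mau-2, mdt-26, pot-3 and ikke-1. The closest summits were at F44E5.5, a gene of the Hsp70 family, where those of the replicate 1 only peak (46.4, rank 434) and a replicate 2 peak (36.1, rank 241) stood 354 bp apart, with 16 bases between the peaks. At mdt-26, a Mediator subunit gene, the summits of the replicate 1 only peak (43.1, rank 536) and a replicate 2 peak (49.1, rank 78) stood 848 bp apart. Replicate 1 only peaks with summits within 5000 bp of each other included pairs at chd-7, at sup-26, at hmp-1, the alpha-catenin gene of the adherens junction, and at vab-10, a spectraplakin gene.

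Small RNA genes were overlapped by 17 of the 412 replicate 1 only peaks (4.13%): 6 lay over tRNA, 3 over snRNA and 8 over snoRNA genes. Of the 300 overlapping peaks it was 10 (3.33%), with 2, 4 and 4. The share was 1.21% of all nuclear replicate 1 peaks and 4.34% in the next stretch below the high peaks, so it was not particular to the set. The highest of the 17 was the peak nearest to ins-13 (64.1, rank 173 in replicate 1 and rank 1156 in replicate 2), over the spliced leader gene sls-2.2.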
